A study of Mus musculus with 8 samples.

Results

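Solute carriers (SLC) are membrane proteins that move amino acids, sugars, ions, metals, vitamins and metabolites across the plasma membrane and the membranes of organelles. The set described here holds 181 genes of the 23818 gene symbols measured. A gene entered when its symbol starts with Slc followed by a digit and its mean reached 5 CPM (the share of a library's reads that fall on a gene, scaled to a fixed total) over the 4 total RNA libraries or over the 4 footprint libraries. Of 374 such symbols, 54 were at 0 in every library, 191 lay below the threshold, and Slc2a1 and Slc2a3 were left out by name. Both kinds of library admitted 150 of the genes, total RNA alone 29, and footprints alone 2 (Slc10a3-ubl4 and Slc25a35). The genes were chosen by these mean levels, which are therefore given as a description. Just inside the threshold, Slc25a42, Slc15a2 and Slc36a1os had their higher mean at 5.67, 6.18 and 6.30 CPM, and just outside it Slc22a17, Slc30a10 and Slc35d2 had theirs at 4.72, 4.90 and 4.91 CPM.

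SLC genes are sorted into families by sequence, and a family tends to carry related solutes. Most families work at the plasma membrane or in endosomes and lysosomes, while SLC25 carriers sit in the inner membrane of mitochondria and SLC35 carriers bring nucleotide sugars into the Golgi and the endoplasmic reticulum. Mouse embryonic stem cells divide fast and are known for a high demand for amino acids, among them threonine and glutamine. The 181 genes belong to 44 families, and 7 of them only bear the name of a carrier: the scaffold proteins Slc9a3r1 and Slc9a3r2, Slc4a1ap, Slc7a6os, the pseudogene Slc22a13b-ps, the antisense gene Slc36a1os and the readthrough gene Slc10a3-ubl4.

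All cells were J1 mouse embryonic stem cells kept in 2i medium with LIF, a culture that holds them in the naive state, and all received cycloheximide, which stops ribosomes on the RNA, for 10 min. Cells with the genotype METTL6 KO G6, lacking a methyltransferase that modifies tRNA, were compared with wild type (WT) cells of the same strain, which carry no other labelled allele. Each genotype gave 2 total RNA libraries and 2 libraries of ribosome footprints, the RNA fragments protected by ribosomes from RNase A and T1, and the study's design calls the pairs biological replicates. The knockout (KO) is 1 clone, G6, and WT titles in total RNA end in a tag absent from the KO titles, so clone, handling and genotype cannot be told apart. P-values measure the spread between these libraries, and in bulk samples fewer cells of a type and less RNA per cell cannot be told apart.

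Mettl6 RNA stood at 25.6 and 27.1 CPM for WT against 2.30 and 0 CPM for KO, and the groups did not overlap (log2 change −3.91, SE 0.60, adjusted p = 0.000367). Its footprints overlapped between genotypes, at 3.38 and 6.59 CPM for WT against 5.33 and 4.36 CPM for KO (log2 change 0.02, adjusted p = 0.985), so Mettl6 checks the labels of the total RNA libraries only, and footprint libraries are called WT or KO as labelled. Estimated depth was 1301531 to 2031518 reads per total RNA library and 1835677 to 2960255 per footprint library, where 1 read is worth 0.492 to 0.768 CPM and 0.338 to 0.545 CPM. The ribosomal RNA precursor Rn45s took 2.49% to 6.46% of total RNA and 38.3% to 46.3% of footprints. All 6 stem cell markers listed (Pou5f1, Sox2, Nanog, Esrrb, Zfp42 and Klf4) were detected, with summed RNA of 3286 to 3472 CPM in WT and 2449 to 2655 CPM in KO libraries, and Nanog (chromosome 6) and Zfp42 (chromosome 8) were lower in KO. The 6 feeder markers summed to 5.25 to 18.4 CPM in total RNA, with Col1a2, Col3a1 and Postn at 0, and the 6 primitive endoderm markers summed to 5.62 to 11.8 CPM in WT and 19.7 to 20.7 CPM in KO total RNA, where none was called. In footprints the latter summed to 12.2 to 13.2 CPM in WT and 13.5 to 13.8 CPM in KO, with 1 gene higher and 1 lower. In total RNA the 4 neural markers summed to 114 to 124 CPM in WT and 47.2 to 58.4 CPM in KO, and the 4 genes of the 2-cell-like state to 6.45 to 7.89 CPM and 40.4 to 46.1 CPM. Most of the neural sum was Nes, at 99.9 and 86.8 CPM for WT against 42.3 and 36.7 CPM for KO. Nes was called lower in both kinds of library and was the only neural marker called. Of the 2-cell-like genes only Zscan4c was called, higher in both kinds, and of the feeder markers only Thy1, lower in footprints. The part of such cells in the results was not tested. As a body, chromosomes 6, 8 and 11 had lower values in KO, with a median log2 change of −0.42 in total RNA and −0.43 in footprints against 0.03 and 0.01 elsewhere, and 40 of the 181 genes (22.1%) lie there.

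Carriers outside the mitochondrial SLC25 family were more often higher than lower in KO cells. Of these carriers, 30 of 144 were higher and 1 lower in total RNA. In footprints 65 of 139 were higher and none lower. Of the 30 SLC25 carriers, 2 rose and 5 fell in total RNA and 1 rose and 5 fell in footprints. Of the 20 that lie off chromosomes 6, 8 and 11, 2 rose and 1 fell in total RNA, and 1 rose and none fell in footprints. Whether both groups of carriers differ was not tested. In total RNA 33 of 181 genes (18.2%) rose and 6 (3.31%) fell, where 6.57% of the 13222 genes tested rose and 7.03% fell. In footprints 67 of 175 genes (38.3%) rose and 7 (4%) fell, against 10.7% and 8.28% of 11624 genes. A gene is said to rise or fall when limma-trend on log2(CPM + 1) gave it a Benjamini-Hochberg adjusted p below 0.05 over all genes, and log2 changes are differences on that scale, KO minus WT. The median log2 change of the SLC genes was 0.30 in total RNA and 0.52 in footprints, and that of all genes −0.04 and −0.05. Through their KO libraries alone, 6 genes reached the threshold (Slc15a2, Slc25a42, Slc2a12, Slc35d1, Slc39a3 and Slc51a), and without them 32 rose in total RNA and 64 in footprints. No gene was called in opposite directions: 30 rose in both kinds of library, 37 in footprints alone, 3 in total RNA alone, and 4 fell in both. Here alone means that the change did not pass in the other kind, where it may still be positive. The members of the set together took 1.04% and 0.933% of WT total RNA and 1.17% and 1.24% of KO total RNA. Their share of footprints was 0.536% and 0.561% (WT) beside 0.796% and 0.804% (KO), and without Rn45s 0.999% and 0.956% against 1.29% and 1.40%, so both KO libraries lay above both WT libraries in each kind.

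**Figure D1:**
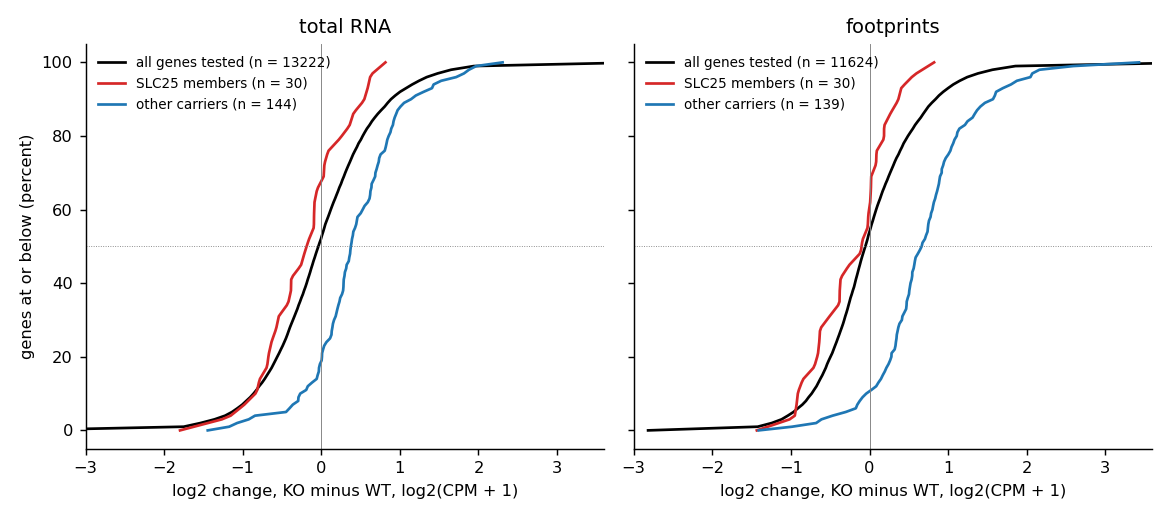
Cumulative distribution of the log2 change, KO minus WT, on the log2(CPM + 1) scale, for all genes tested, the 30 SLC25 members and the other carriers, in total RNA (left) and footprints (right). The horizontal axis is cut at −3 and 3.6. The curve of the other carriers (medians 0.38 and 0.66) lies to the right of that of all genes, and the SLC25 curve (medians −0.19 and −0.10) lies slightly to its left over most of its range.

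Separation of the groups gave the same order. Both KO libraries lay above both WT libraries for 78 genes in total RNA (43.1%, against 26.4% of all genes) and for 115 in footprints (65.7%, against 26.9%). Both lay below for 26 genes in total RNA (14.4%, against 29.8%) and for 20 in footprints (11.4%, against 30.7%). With the filter raised to a mean of 5 CPM, 8.7% of all genes rose and 9.66% fell in total RNA, and 13.4% rose and 10.8% fell in footprints. Of the SLC genes 17.9% rose under that filter in total RNA and 41.4% in footprints. The number of calls rests on every library. With any 1 library left out, fewer SLC genes were called, and so were fewer of all genes tested. These fits leave 1 library in a group and 1 residual degree of freedom, so their counts are not given. Each called SLC gene kept its sign in all of them.

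**Figure D2:**
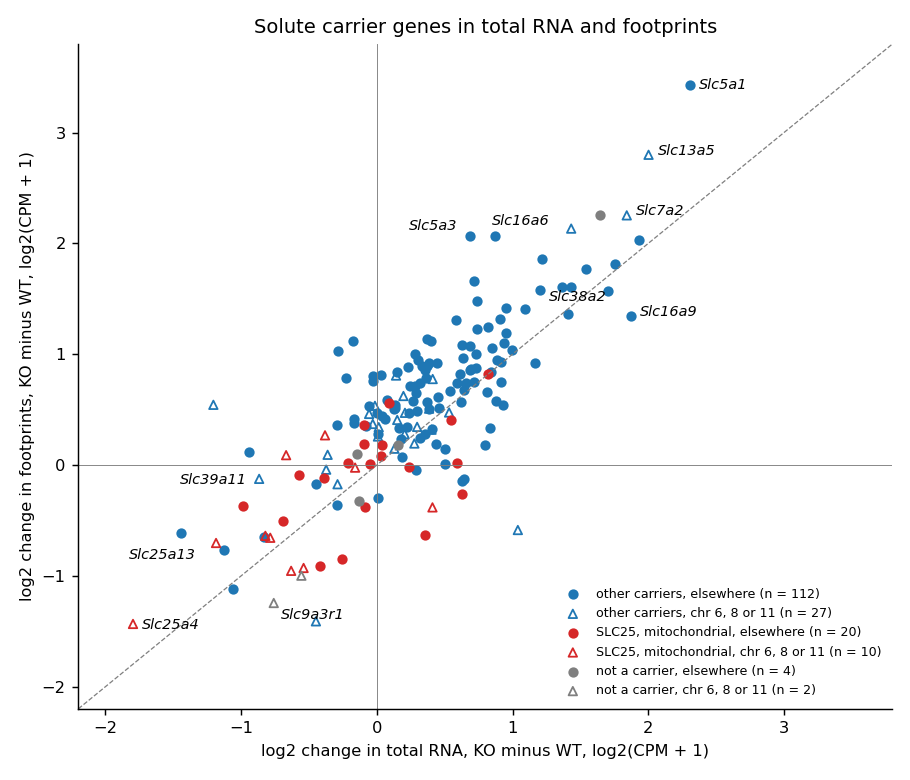
Log2 change in footprints (vertical) against log2 change in total RNA (horizontal), KO minus WT, for the 175 SLC genes tested in both. Triangles are genes of chromosomes 6, 8 and 11, colours give the class, and the dashed line marks equal changes. Slc5a1 lies at 2.31 and 3.43 and Slc25a4 at −1.80 and −1.43.

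Levels differed widely between carriers. Per kb of transcript and averaged over both genotypes, Slc25a5 and Slc25a3, the mitochondrial carriers of ADP and ATP and of phosphate, led total RNA at 336 and 170.3 CPM per kb, and they also led footprints at 425 and 284 CPM per kb of coding sequence. At the plasma membrane the amino acid carriers Slc38a4 and Slc38a2, the phosphate carrier Slc20a1 and Slc3a2, the heavy chain shared by several amino acid exchangers, had an order that depended on the genotype. In WT total RNA they stood at 94.8, 59.8, 63.5 and 84.7 CPM per kb, and in KO at 142, 138, 121 and 74.9. Slc3a2 was thus second among these 4 in WT and last in KO. In footprints Slc3a2 was at 188 CPM per kb in WT and 245 in KO and Slc20a1 at 20.7 and 48.1, so Slc3a2 lay higher in both genotypes. The median gene of the set was at 8.81 CPM per kb of total RNA and 10.4 CPM per kb of footprints.

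Promoters of 3 genes are shown, the largest increase (Slc5a1), an abundant amino acid carrier that rose in both kinds of library (Slc38a2) and the largest decrease (Slc25a4). Each window runs from 250 bases before to 50 bases after the start of the gene, read 5′ to 3′ on the strand of the gene, from RefSeq on GRCm38.p6. Capitals mark a match on either strand to 1 of 4 motifs searched: TGATGNAA (bound by ATF4 with a C/EBP partner), CACGTG (the E box), GGAATG (bound by TEAD factors) and CCAAT. The windows lie at chr5:33103969-33104268 (plus strand) for Slc5a1, chr15:96699679-96699978 (minus) for Slc38a2 and chr8:46211013-46211312 (minus) for Slc25a4.
Slc5a1: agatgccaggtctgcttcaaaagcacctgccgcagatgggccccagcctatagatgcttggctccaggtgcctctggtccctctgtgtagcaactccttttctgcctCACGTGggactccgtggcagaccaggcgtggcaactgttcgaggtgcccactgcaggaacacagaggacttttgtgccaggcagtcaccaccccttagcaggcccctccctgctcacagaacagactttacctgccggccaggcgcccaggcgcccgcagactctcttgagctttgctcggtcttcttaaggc
Slc38a2: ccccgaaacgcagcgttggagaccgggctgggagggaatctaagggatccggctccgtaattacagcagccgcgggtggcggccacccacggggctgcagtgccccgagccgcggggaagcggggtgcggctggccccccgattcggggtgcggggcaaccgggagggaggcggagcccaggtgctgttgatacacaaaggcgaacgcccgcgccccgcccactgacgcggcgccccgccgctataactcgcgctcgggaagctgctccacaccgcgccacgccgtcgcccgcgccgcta
Slc25a4: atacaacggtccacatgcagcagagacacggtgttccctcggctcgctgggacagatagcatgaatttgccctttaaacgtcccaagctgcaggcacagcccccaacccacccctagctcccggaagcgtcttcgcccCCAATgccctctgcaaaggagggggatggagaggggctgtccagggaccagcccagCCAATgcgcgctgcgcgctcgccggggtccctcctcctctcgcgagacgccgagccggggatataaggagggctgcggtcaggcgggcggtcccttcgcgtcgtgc
The Slc5a1 window holds 1 E box, the Slc25a4 window 2 CCAAT matches, and the Slc38a2 window none of the 4 motifs. RefSeq windows were matched by symbol for 141 of the 181 genes. TGATGNAA occurred in none of the 49 matched genes that rose in footprints and in 3 of the 79 tested and not called, against 2.52% of the 8801 matched genes tested in footprints. CACGTG occurred in 7 (14.3%) and 16 (20.3%) of these SLC genes against 12.3% of the genes tested. GGAATG occurred in 6 (12.2%) and 18 (22.8%) against 14.2%, and CCAAT in 19 (38.8%) and 34 (43.04%) against 43.9%. Of all 32851 promoter windows, 3.97%, 7.15%, 14.7% and 37.4% held these 4 motifs in that order. A match describes letters only and says nothing of binding.

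Among carriers of amino acids and related solutes (27 genes), 8 rose and none fell in total RNA, and 14 of 26 tested rose and none fell in footprints, with median log2 changes of 0.39 and 0.58. Slc7a1, Slc7a2 and Slc7a3, plasma membrane carriers that take up arginine and lysine, rose in both kinds of library. Slc7a7 and Slc7a6, of the same family, had lower means in KO and were not called. Slc7a7 RNA was at 8.12 CPM per kb in WT and 4.33 in KO, and its footprints at 4.41 and 2.45. Slc7a6 RNA was at 28.5 CPM per kb in WT and 21.98 in KO, and its footprints at 30.7 and 29.9. Slc7a3 RNA was at 101.4 and 109 CPM for WT against 212 and 197 CPM for KO (log2 change 0.95, SE 0.15, adjusted p = 0.000492), and its footprints at 76.3 and 107 CPM for WT against 241 and 244 CPM for KO (log2 change 1.41, SE 0.18, adjusted p = 1.41e-07). Slc7a1 RNA was at 183 and 182 CPM for WT against 321 and 323 CPM for KO (log2 change 0.82, adjusted p = 0.000523), and its footprints at 116 and 119 CPM for WT against 269 and 292 CPM for KO (log2 change 1.25, adjusted p = 4.92e-07). The replicates of Slc7a1 lay close together, and WT and KO were far apart in both kinds of library. Slc7a2 (chromosome 8) had low WT levels, with RNA at 11.8 and 8.17 CPM for WT against 30.7 and 46.6 CPM for KO and footprints at 4.09 and 5.38 CPM for WT against 24.4 and 28.01 CPM for KO, an increase of 3.87-fold and 5.54-fold in mean CPM (adjusted p = 0.00178 and 4.42e-07).

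Several SLC38 carriers of glutamine, alanine and other small neutral amino acids rose too. Slc38a2, a carrier known in mammalian cells for its increase when amino acids are scarce, stood at 289 and 268 CPM for WT against 668 and 615 CPM for KO in total RNA (log2 change 1.20, SE 0.12, adjusted p = 6.07e-06). Its footprints were at 121 and 159.6 CPM for WT against 405 and 426 CPM for KO (log2 change 1.58, SE 0.17, adjusted p = 5.26e-09), and both KO libraries lay above both WT libraries in each kind. Slc38a4, an imprinted gene of the same family, was at 409 and 336 CPM for WT against 532 and 583 CPM for KO in total RNA and at 152 and 190.1 CPM for WT against 433 and 413 CPM for KO in footprints (log2 change 0.59, adjusted p = 0.00551 and log2 change 1.31, adjusted p = 1.96e-07). Slc38a1 rose in both (log2 changes 0.69 and 0.86), and the lysosomal glutamine carrier Slc38a7 rose in footprints alone (0.62). Slc38a9, the lysosomal sensor of arginine, did not pass in either (adjusted p = 0.0858 and 0.344). Slc38a10 was at 235 and 225 CPM for WT against 156 and 204 CPM for KO in total RNA and did not pass (adjusted p = 0.13).

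Carriers of glutamate, creatine and glycine rose as well. Slc6a8, which brings in creatine, had RNA at 62.02 and 57.7 CPM for WT against 134 and 193 CPM for KO and footprints at 44.6 and 35.3 CPM for WT against 88.9 and 121 CPM for KO, and KO and WT did not overlap (log2 change 1.41, adjusted p = 0.000124 and log2 change 1.37, adjusted p = 2.47e-06). Slc1a1, a glutamate carrier, rose in both (log2 changes 0.68 and 1.07), and Slc6a9, a glycine carrier, rose in footprints (1.32) with log2 change 0.91, adjusted p = 0.173 in total RNA. Exonic overlap with a neighbour makes part of the reads of Slc1a1 and Slc6a9 ambiguous.

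The exchangers of large neutral amino acids and of glutamine had smaller log2 changes. Slc7a5, the light chain that carries leucine together with Slc3a2, had RNA at 172 and 108 CPM for WT against 179.8 and 177 CPM for KO, where 1 WT library lay close to both KO libraries (log2 change 0.39, adjusted p = 0.188). It lies on chromosome 8, and with the median of each chromosome removed it passed in total RNA (log2 change 0.78, adjusted p = 0.012). Its footprints were at 182 and 199 CPM for WT against 274 and 269 CPM for KO (log2 change 0.51, adjusted p = 0.0238). Slc3a2 RNA was at 270.2 and 206 CPM for WT against 189.8 and 231 CPM for KO, overlapping between genotypes, and its footprints at 338 and 300.3 CPM for WT against 416 and 414 CPM for KO, which did not overlap and did not pass (log2 change 0.38, adjusted p = 0.096). Slc1a5, the glutamine exchanger, had footprints of 89.2 and 79.5 CPM for WT against 105 and 134 CPM for KO (log2 change 0.49, adjusted p = 0.0496) and RNA of 87.1 and 64.4 CPM for WT against 106 and 80.05 CPM for KO (log2 change 0.30, adjusted p = 0.377). Slc7a11, the cystine carrier, was at 12.3 and 10.5 CPM for WT against 7.73 and 15.8 CPM for KO in total RNA, with overlapping groups, and below the filter in footprints. The taurine carrier Slc6a6 was abundant and differed little, at 321 and 278 CPM for WT against 317 and 285 CPM for KO in total RNA (log2 change 0.01, adjusted p = 0.98). The footprint call of Slc7a5 was lost with a replicate block and with all 8 libraries in 1 fit (adjusted p = 0.0908 and 0.053) and that of Slc1a5 in 7 alternatives (adjusted p of 0.064 to 0.121 where lost).

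Sugar and polyol carriers (13 genes of families such as SLC2, SLC5, SLC37 and SLC45) held the largest increase of the set, with 6 rising in total RNA and 7 in footprints and none falling (medians 0.69 and 1.01). Slc5a1, which couples the uptake of glucose and galactose to sodium, was at 16.2 and 11.7 CPM for WT against 76.1 and 68.9 CPM for KO in total RNA (log2 change 2.31, SE 0.27, adjusted p = 3.02e-05). Its footprints were at 4.39 and 4.71 CPM for WT against 58.7 and 58.8 CPM for KO (log2 change 3.43, SE 0.26, adjusted p = 7.24e-13). Mean CPM was 5.18-fold higher in KO total RNA and 12.9-fold higher in KO footprints, and the replicates of each group lay close together. Slc5a3, which takes up myo-inositol, had RNA at 59.1 and 61.3 CPM for WT against 117 and 81.4 CPM for KO (log2 change 0.69, adjusted p = 0.0323) and footprints at 2.14 and 1.97 CPM for WT against 13.4 and 10.4 CPM for KO (log2 change 2.07, adjusted p = 9.04e-05). Its WT footprints were a few reads per library beside an RNA level of about 60 CPM, and its total RNA call was lost with no filter, with a pseudocount of 0.1 and with all 8 libraries in 1 fit (adjusted p = 0.0979, 0.0548 and 0.0922). Slc5a11, a further inositol carrier, rose in both (log2 changes 1.37 and 1.61).

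Slc5a6, placed here by its family, carries the vitamins biotin and pantothenate, and its RNA was at 21.7 and 26.1 CPM for WT against 60.7 and 70.9 CPM for KO and its footprints at 18.2 and 13.6 CPM for WT against 49.2 and 51.2 CPM for KO (log2 change 1.43, adjusted p = 0.000826 and log2 change 1.61, adjusted p = 1.86e-06). Its transcripts share 27.3% of their words of 25 bases with other genes, chiefly Gm6157, so its reads are partly ambiguous. Slc37a2 and Slc45a4 rose in both kinds of library, with log2 changes of 0.85 and 0.73 in total RNA and 1.05 and 1.01 in footprints. Slc37a3 and Slc37a4, the latter the carrier of glucose 6-phosphate into the endoplasmic reticulum, did not pass, with footprint log2 changes of 0.28 and −0.36. The glucose carrier Slc2a8 rose in footprints with overlapping groups, at 25.3 and 13.6 CPM for WT against 24.6 and 40.9 CPM for KO (log2 change 0.74, adjusted p = 0.0454).

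**Figure D3:**
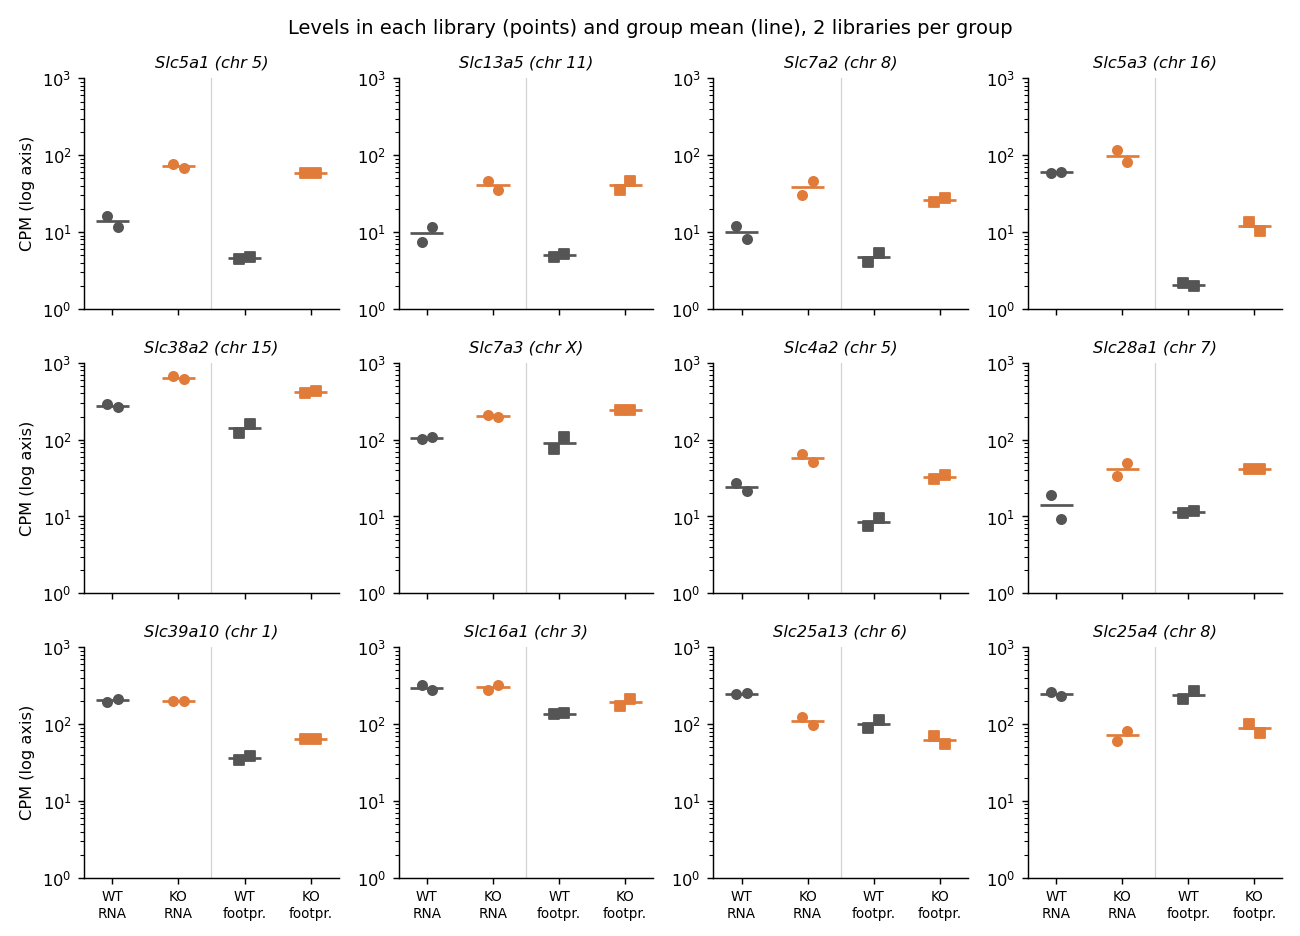
CPM (log axis) of 12 SLC genes in each of the 8 libraries. Points are libraries, circles for total RNA and squares for footprints, grey for WT and orange for KO, and lines are means of 2 libraries. Slc5a1 footprints lie at 4.39 and 4.71 CPM for WT against 58.7 and 58.8 CPM for KO, Slc39a10 separates the genotypes in footprints only, and Slc25a13 and Slc25a4 lie lower in KO.

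Carriers of monocarboxylates and other organic acids (10 genes) had 3 increases in total RNA and 5 of 8 tested in footprints, and no decrease. Slc13a5, the sodium-coupled citrate carrier (chromosome 11), had RNA at 7.38 and 11.7 CPM for WT against 46.1 and 35.4 CPM for KO (log2 change 2.002, SE 0.34, adjusted p = 0.000872) and footprints at 4.73 and 5.18 CPM for WT against 35.3 and 46.3 CPM for KO (log2 change 2.80, SE 0.28, adjusted p = 8.45e-10). KO footprints were 8.24-fold higher in mean CPM, while genes of that chromosome had a median footprint log2 change of −0.46. Slc16a6 and Slc16a9, of the monocarboxylate carrier family, rose in both. The total RNA call of Slc16a6 was lost with no filter (adjusted p = 0.0726) and the footprint call of Slc16a9 with a pseudocount of 0.1 (adjusted p = 0.0527). Slc16a6 was at 2.70 and 2.35 CPM for WT against 14.8 and 14.2 CPM for KO in footprints (log2 change 2.13, adjusted p = 2.39e-05) and shares 1052 exonic bases with Amz2, and Slc16a9 was at 5.41 and 5.11 CPM for WT against 19.2 and 24.9 CPM for KO in total RNA (log2 change 1.87, adjusted p = 0.00657). Slc13a5 shares 473 exonic bases with 1700051A21Rik, and Slc16a9 shares 491 with Gm7097. Exonic overlap with another gene occurred in 59 of the 181 genes of the set. Slc16a1 and Slc16a3 carry lactate. Slc16a1 RNA was at 319.96 and 279 CPM for WT against 279 and 322 CPM for KO, with overlapping groups, and its footprints at 136 and 139 CPM for WT against 175 and 209.7 CPM for KO (log2 change 0.47, adjusted p = 0.0437, lost in 6 alternatives, among them 0.126 with a replicate block). Slc16a3 did not pass in total RNA or footprints (log2 change −0.06, adjusted p = 0.919 and log2 change 0.46, adjusted p = 0.15). It lies on chromosome 11, and with the median of each chromosome removed its footprints passed (log2 change 0.92, adjusted p = 0.0024). Slc10a7, which follows Slc16a1 in RNA level per kb in this group, rose in footprints (0.81).

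Carriers of inorganic ions and of acid and base equivalents (22 genes) rose in 5 cases in total RNA and in 13 of 22 in footprints, with medians of 0.39 and 0.82, and none fell. Slc4a2, which exchanges chloride for bicarbonate, had RNA at 27.1 and 21.5 CPM for WT against 64.5 and 51.2 CPM for KO and footprints at 7.43 and 9.41 CPM for WT against 31.2 and 34.9 CPM for KO, and KO lay above WT without overlap (log2 change 1.22, adjusted p = 0.00396 and log2 change 1.86, adjusted p = 1.74e-06). It shares 1141 exonic bases with Fastk. Slc20a1, a sodium and phosphate carrier, had RNA at 252 and 169.6 CPM for WT against 376 and 428 CPM for KO and footprints at 40.9 and 43.8 CPM for WT against 93.9 and 102 CPM for KO (log2 change 0.95, adjusted p = 0.000861 and log2 change 1.19, adjusted p = 1.14e-05). Its relative Slc20a2 did not pass in either (log2 changes 0.30 and 0.34). In SLC12, a family of cation and chloride cotransporters, Slc12a2, Slc12a4 and Slc12a7 rose in footprints (log2 changes 0.88, 0.78 and 0.89). Of these Slc12a2, which brings in sodium, potassium and chloride together, also rose in total RNA, at 104 and 106 CPM for WT against 187 and 163 CPM for KO (log2 change 0.73, adjusted p = 0.00479). Slc12a7, a potassium and chloride carrier, had RNA at 144 and 137 CPM for WT against 171 and 194 CPM for KO and footprints at 130.04 and 138 CPM for WT against 257 and 241 CPM for KO, and only the footprints passed. Slc12a8 and Slc12a9, of the same family, did not pass (−0.62 and 0.57). The sodium and proton exchanger Slc9a8 rose in footprints (log2 change 0.92) and did not pass in total RNA (log2 change 0.44, adjusted p = 0.355). Slc8b1, the mitochondrial sodium and calcium exchanger, rose in both (1.09 and 1.41).

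Metal and heme carriers (23 genes) rose in footprints in 8 cases and in total RNA in 1, Slc11a2, which carries iron (log2 changes 0.69 and 0.87). Zinc carriers of the SLC39 family, which bring zinc into the cytosol, included Slc39a10, whose RNA was at 196 and 215 CPM for WT against 199 and 203 CPM for KO (log2 change −0.03, adjusted p = 0.918). Its footprints were at 34.1 and 38.1 CPM for WT against 63.2 and 64.3 CPM for KO (log2 change 0.80, SE 0.20, adjusted p = 0.00321), so the genotypes overlapped in total RNA and were apart in footprints. Slc39a4 showed the same order, with footprints at 54.7 and 58.4 CPM for WT against 116 and 105 CPM for KO (log2 change 0.95, adjusted p = 0.000201) and RNA at 57.6 and 37.3 CPM for WT against 61.5 and 53.8 CPM for KO (log2 change 0.30, adjusted p = 0.441). Slc39a1 rose in footprints (0.78, with 30.5% of its words of 25 bases shared with other genes), and so did Slc39a3, at 0 and 3.29 CPM for WT against 7.79 and 7.63 CPM for KO. It reached the 5 CPM threshold only through its KO libraries. Slc39a6 and Slc39a7 did not pass (0.36 and 0.47). Slc39a11 (chromosome 11) fell in total RNA, at 112 and 102 CPM for WT against 49.9 and 67.6 CPM for KO (log2 change −0.87, adjusted p = 0.00718), with overlapping footprints (log2 change −0.12, adjusted p = 0.733), and the call was lost when the median of each chromosome was removed (adjusted p = 0.165). Among the SLC30 carriers, which export zinc from the cytosol, Slc30a1, Slc30a2 and Slc30a6 rose in footprints (0.67, 0.95 and 0.999). The Slc30a1 call was lost in 5 alternatives (adjusted p of 0.0531 to 0.0624, and 0.0556 with a replicate block). The copper carrier Slc31a1 did not pass (log2 change 0.50, adjusted p = 0.139).

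Nucleoside carriers (6 genes) rose in 1 case in total RNA and in 4 in footprints. Slc28a1, which concentrates pyrimidine nucleosides, had RNA at 19.2 and 9.19 CPM for WT against 33.8 and 49.2 CPM for KO and footprints at 11.1 and 11.8 CPM for WT against 41.4 and 41.4 CPM for KO (log2 change 1.54, adjusted p = 0.00769 and log2 change 1.77, adjusted p = 7.85e-07), and its replicates were nearly equal in footprints and spread more in total RNA, where the call was lost with no filter (adjusted p = 0.0636). The equilibrative carriers Slc29a1, Slc29a2 and Slc29a3 passed in footprints (0.54, 1.03 and 0.68) and not in total RNA. Slc29a2 RNA was at 4.14 CPM per kb in WT and 3.22 in KO, and its footprints at 10.7 and 22.7. Slc29a3 RNA was at 6.28 CPM per kb in WT and 9.82 in KO, and its footprints at 11.5 and 18.9, so both of its means were higher in KO. Slc29a1 RNA was at 106 and 86.8 CPM for WT against 102 and 108 CPM for KO and overlapped, and its footprints were at 71.6 and 67.8 CPM for WT against 102 and 102 CPM for KO (adjusted p = 0.0282, and 0.0854 with a replicate block).

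Nucleotide sugar carriers of the SLC35 family (19 genes, some without a known cargo) had no call in total RNA and 5 increases in footprints, and the footprint log2 change was positive for all 19 (median 0.52). Slc35d1, Slc35g1, Slc35b2, Slc35f6 and Slc35f2 rose in footprints (1.81, 0.89, 0.89, 0.72 and 0.65). In total RNA Slc35d1 was at 1.48 and 5.62 CPM for WT against 19.98 and 7.87 CPM for KO (log2 change 1.75, adjusted p = 0.0642), and it passed with a replicate block and with all 8 libraries in 1 fit (adjusted p = 0.0195 and 0.0316). It reached the 5 CPM threshold only through its KO libraries. Slc35g1 stood at 36.01 and 30.03 CPM for WT against 64.3 and 59.5 CPM for KO in footprints, while Slc35b1, the gene with the highest RNA level per kb in the group, did not pass (log2 change 0.47, adjusted p = 0.0869).

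Carriers of vitamins, choline and acetyl-CoA (10 genes) rose in 3 cases in total RNA and 3 in footprints. Slc44a1, a choline carrier, rose in both, with RNA at 86.6 and 87.3 CPM for WT against 167 and 163 CPM for KO and footprints at 44.6 and 47.3 CPM for WT against 73.01 and 83.3 CPM for KO (log2 change 0.91, adjusted p = 0.000948 and log2 change 0.75, adjusted p = 0.00417). Slc19a2, which brings in thiamine, rose in both (0.94 and 1.10), while its relative for folates, Slc19a1, did not pass (log2 change 0.37, adjusted p = 0.51 and log2 change 0.57, adjusted p = 0.228). Slc44a2 rose in footprints, at 8.11 and 13.2 CPM for WT against 36.1 and 33.8 CPM for KO (log2 change 1.66, adjusted p = 1.12e-05), and Slc33a1, which takes acetyl-CoA into the endoplasmic reticulum, in total RNA (log2 change 0.88, adjusted p = 0.0303).

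Fatty acid carriers (SLC27, 4 genes) had 2 increases in each kind of library. Slc27a3, an acyl-CoA synthetase of the family, was at 8.86 and 16.9 CPM for WT against 37.6 and 47.2 CPM for KO in total RNA and 17.2 and 12.7 CPM for WT against 45.5 and 46.3 CPM for KO in footprints, with no overlap (log2 change 1.70, adjusted p = 0.00274 and log2 change 1.57, adjusted p = 4.16e-06). Slc27a4 rose in total RNA alone (0.83) and Slc27a2 in footprints alone (1.08). Of 10 carriers of organic ions, peptides and vesicle cargo, 1 rose in total RNA and 4 of 8 tested in footprints. Slc51a, a subunit of the bile acid exporter of the basolateral membrane, was at 2.70 and 2.35 CPM for WT against 13.1 and 13.6 CPM for KO in footprints (log2 change 2.03, adjusted p = 6.12e-05) and at 1.97 and 1.53 CPM for WT against 12.3 and 7.22 CPM for KO in total RNA (log2 change 1.93, adjusted p = 0.0385), where the call was lost with no filter, with a mean of at least 5 CPM and with a pseudocount of 0.1 (adjusted p = 0.099, 0.0531 and 0.0606). Slc51a reached the 5 CPM threshold only through its KO libraries, so its increase is a description. It shares 567 exonic bases with Pcyt1a. The peptide carriers Slc15a4 and Slc15a1 rose in footprints (1.12 and 0.76) with total RNA log2 changes of 0.40 and −0.03 that did not pass.

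**Figure D4:**
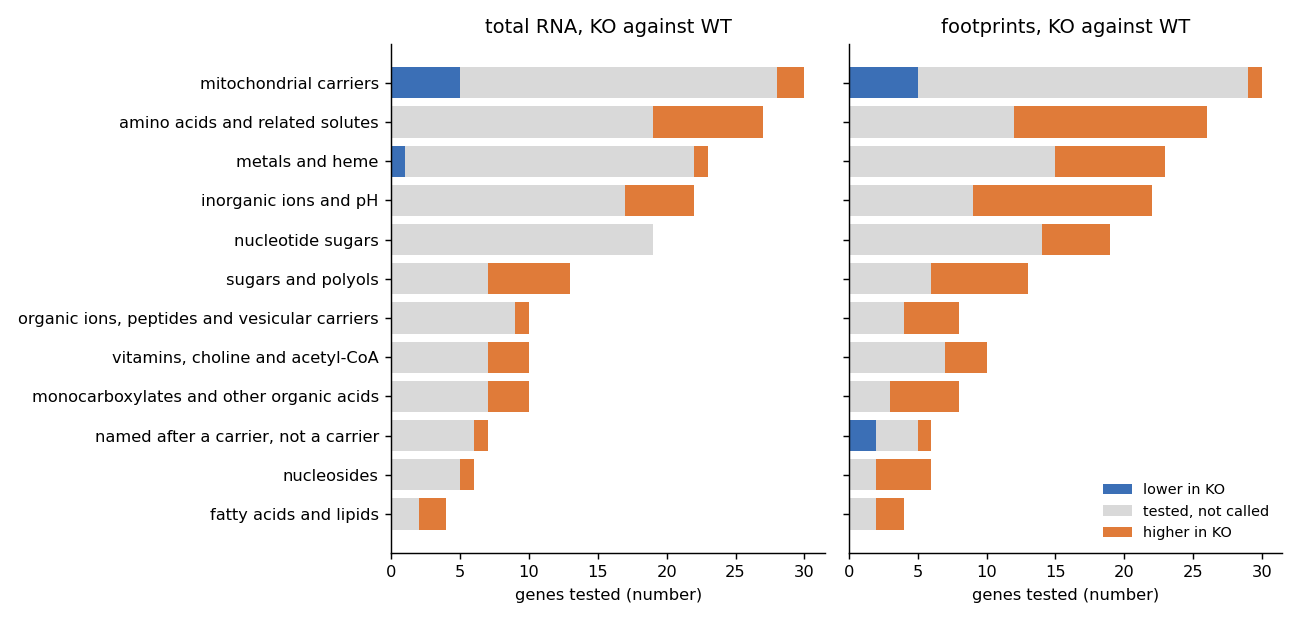
Number of SLC genes tested per group of solutes that were higher in KO (orange), lower in KO (blue) or not called (grey), in total RNA (left) and footprints (right). Every group other than the mitochondrial carriers, metal carriers in total RNA and the genes that are not carriers has increases or no calls only, and nucleotide sugar carriers have no call in total RNA and 5 in footprints.

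In the mitochondrial SLC25 family (30 genes) more genes fell than rose, and most of those that fell lay on chromosomes 6, 8 and 11. In total RNA 2 rose and 5 fell, in footprints 1 rose and 5 fell, and the median log2 changes were −0.19 and −0.10. Of all genes tested, 6.57% rose and 7.03% fell in total RNA, and 10.7% rose and 8.28% fell in footprints. The other 144 carriers had 30 increases and 1 decrease in total RNA, and 65 increases and no decrease among 139 tested in footprints (medians 0.38 and 0.66). Of the 30 SLC25 genes 10 lie on chromosomes 6, 8 and 11, and among the 20 elsewhere 2 rose and 1 fell in total RNA and 1 rose and none fell in footprints (medians −0.07 and −0.0034). The difference between the families was not tested.

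Slc25a4, the ADP and ATP carrier typical of heart and muscle (chromosome 8), had RNA at 264 and 234 CPM for WT against 60.7 and 82.7 CPM for KO, which was 3.48-fold lower in mean CPM (log2 change −1.80, SE 0.17, adjusted p = 4.32e-06). Its footprints were at 211 and 268 CPM for WT against 99.7 and 76.8 CPM for KO and 2.72-fold lower (log2 change −1.43, SE 0.18, adjusted p = 1.26e-07). Slc25a5, the ADP and ATP carrier of dividing cells, fell slightly in total RNA, at 477 and 465 CPM for WT against 345 and 377 CPM for KO (log2 change −0.39, adjusted p = 0.0417), and its footprints overlapped, at 363 and 424 CPM for WT against 405 and 326 CPM for KO. The Slc25a5 call was lost with no filter, a pseudocount of 0.1, a replicate block or all 8 libraries in 1 fit (adjusted p of 0.0542 to 0.0878), and 53.6% of its words of 25 bases are shared with other genes, chiefly Slc25a5-ps. Slc25a13, the aspartate and glutamate carrier citrin (chromosome 6), had RNA at 245 and 253 CPM for WT against 122 and 97.1 CPM for KO and footprints at 88.8 and 115 CPM for WT against 69.7 and 54.5 CPM for KO (log2 change −1.19, adjusted p = 9.03e-05 and log2 change −0.70, adjusted p = 0.0068).

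Slc25a39, needed for mitochondrial glutathione, and Slc25a11, the carrier of 2-oxoglutarate, both on chromosome 11, fell in both kinds of library (log2 changes −0.82 and −0.79 in total RNA, −0.64 and −0.66 in footprints). The total RNA calls were lost with no filter (adjusted p = 0.0614 for Slc25a39 and 0.0855 for Slc25a11), and that of Slc25a11 also with a pseudocount of 0.1 (adjusted p = 0.0541). The footprint call of Slc25a11 was lost with a replicate block and with all 8 libraries in 1 fit (adjusted p = 0.066 and 0.0502). Slc25a15, the ornithine carrier (chromosome 8), fell in footprints, at 12.2 and 13.2 CPM for WT against 6.97 and 5.45 CPM for KO (log2 change −0.93, adjusted p = 0.0361, and 0.0527 with no filter). When each chromosome's median change was removed, Slc25a4, Slc25a13 and Slc25a5 stayed lower in total RNA (log2 changes −1.40, −0.78 and −0.47), and Slc25a4 was the sole SLC25 gene that stayed lower in footprints (−1.04). In the other direction Slc25a20, which brings in acylcarnitines, rose in both (0.82 and 0.82), and Slc25a36, a pyrimidine nucleotide carrier, rose in total RNA, at 214 and 225 CPM for WT against 311 and 353 CPM for KO, with footprints at 34.4 and 28.7 CPM for WT against 34.4 and 29.4 CPM for KO that overlapped. Slc25a3, the phosphate carrier, did not pass in either (log2 change −0.09, adjusted p = 0.724 and log2 change 0.36, adjusted p = 0.113).

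All 7 decreases in footprints and 5 of 6 in total RNA lay on chromosomes 6, 8 and 11. The decreases outside SLC25 were Slc39a11 and 2 genes that are no carriers: the scaffold Slc9a3r1 (chromosome 11), with footprints at 105 and 116 CPM for WT against 50.04 and 42.5 CPM for KO (log2 change −1.25, SE 0.19, adjusted p = 4.61e-06), and Slc7a6os (chromosome 8), at 43.9 and 42.4 CPM for WT against 20.9 and 21.2 CPM for KO (log2 change −0.999, adjusted p = 0.00105). With those chromosomes left out, 30 of 141 SLC genes rose and 1 fell in total RNA. In footprints 55 of 136 rose and none fell. Among all genes in that setting, 786 of 10878 (7.23%) rose and 417 fell in total RNA. In footprints 1077 of 9522 (11.3%) of them rose and 351 fell. With all chromosomes kept, 930 of 13222 genes fell in total RNA and 963 of 11624 in footprints. On those chromosomes 3 of 40 SLC genes tested rose in total RNA and 7 of 39 in footprints, among them Slc7a2, Slc13a5 and Slc16a6. The share of all genes there that rose is not given here. Their median log2 change was −0.42 in total RNA and −0.43 in footprints. The pseudogene Slc22a13b-ps, which lies elsewhere, also rose, with 59.9% of its words of 25 bases shared, chiefly with Slc22a13. Its total RNA call was lost with no filter (adjusted p = 0.0817).

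The footprint to total RNA ratio asks whether footprints changed beyond RNA, and no SLC gene passed that test. It called 7 of 11364 genes (0.0616%), 5 of them higher (0.044%) and 2 lower (0.0176%). The interaction was positive for 131 of 175 genes (74.9%, against 55.4% of all genes), with a median of 0.24 against 0.07. The standard error of a single gene's interaction had a median of 0.42. The smallest p-values were those of Slc5a3 (1.38, SE 0.40, adjusted p = 0.328), Slc39a10 (0.84, SE 0.24, adjusted p = 0.332) and Slc27a1 (1.75, SE 0.51, adjusted p = 0.332). Slc27a1, a fatty acid carrier, had RNA at 22.2 and 15.8 CPM for WT against 5.38 and 10.5 CPM for KO and footprints at 12.2 and 8.27 CPM for WT against 13.96 and 16.3 CPM for KO, so both KO libraries lay below WT in total RNA and above WT in footprints. Neither change passed on its own, and the interaction passed when KO total RNA replicate 2 was left out (2.17, adjusted p = 0.0397).

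As a description of levels, mean log2(CPM + 1) of footprints minus that of total RNA had a median of −1.04 over the SLC genes in WT and −0.69 in KO, beside −0.87 and −0.79 over all genes. The lowest WT value was that of Slc5a3 (−4.33, and −2.94 in KO), followed by Slc25a51, which carries NAD into mitochondria (−3.13), and Slc6a15 (−3.06). The highest was that of the readthrough gene Slc10a3-ubl4 (2.91). Slc41a3 stood at 1.34 in WT and −0.29 in KO.

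Coding sequences of the genes that rose in footprints had a median of 573 codons and a serine share of 7.55%, beside 459.5 codons and 7.80% for the SLC genes not called and 476 codons and 7.71% for all genes tested. Serine is named because METTL6 modifies serine tRNA. The share of the serine codons AGC and AGT had medians of 2.86%, 2.89% and 3.08% in the same order. Of the SLC genes below the 5 CPM threshold, 1 of 53 tested rose in total RNA (1.89%, against 6.57% of all genes) and 3 of 33 in footprints (9.09%, against 10.7%), and none fell.

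Other transporters, in lists chosen with earlier results of these data known, mostly had calls in the same direction. Of all genes tested, 6.57% rose in total RNA and 10.7% in footprints. Of SLC-like carriers under other names 6 of 26 rose in total RNA and 11 of 23 in footprints, and none fell (footprint median 0.67). Mfsd1 and Spns1, lysosomal carriers, had footprints at 43.2 and 46.1 CPM for WT against 103 and 108 CPM for KO and 62.8 and 61.6 CPM for WT against 158 and 161 CPM for KO respectively, with no overlap (log2 changes 1.22 and 1.35). Of ATP-driven pumps 6 of 15 rose in total RNA, and in footprints 7 rose and 1 fell (Atp1b2, on chromosome 11, −1.57). Of ABC transporters 4 of 20 rose in total RNA and 9 of 20 in footprints, and none fell. Abcb1a, a drug exporter, had footprints at 5.86 and 6.86 CPM for WT against 24.7 and 23.7 CPM for KO (log2 change 1.78, adjusted p = 1.61e-05), and the cholesterol exporter Abca1 at 33.4 and 35.8 CPM for WT against 70.1 and 88.3 CPM for KO (log2 change 1.16, adjusted p = 3.9e-05). Whether these lists and the SLC genes differ was not tested.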

How the data were processed

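Total RNA-seq and ribosome profiling libraries of WT and METTL6 KO G6 cells were used, 2 per group, grouped by their titles. Per the submitters' processing notes, CASAVA 1.8.2, Bowtie2 and RSEM were used with mm10 (settings: not given in the sources used here). Deposited values are CPM made by the authors from RSEM estimates. Depth was estimated by taking the commonest low value above 0 in each library as the value of a read. On that scale the share of whole reads, to within 0.01 read, was 89.2% to 90.5% per total RNA library and 65.3% to 72.8% per footprint library, so counts were not recovered.

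CPM were taken to log2(CPM + 1), genes averaging 1 CPM or more kept, and WT and KO compared with limma-trend (limma 3.58.1, R 4.3.3; Benjamini-Hochberg over all genes, 0.05), in fits of 4 libraries (2 residual degrees of freedom). The footprint to RNA ratio was the interaction in all 8 libraries (4 residual degrees of freedom). Folds are ratios of mean CPM. The fits were also run on simulated counts with planted changes and a fixed spread. As these counts lacked the chromosome-wide shifts of the real libraries, this checked only that the fits ran as intended. Role groups follow family numbers. GENCODE vM21 gave chromosomes, lengths, exonic overlaps and shared words of 25 bases, and RefSeq the promoters. Genes given with values included those with the 10 largest called, non-overlapping changes in each direction and a list of known carriers. They also included the 2 most abundant per kb in each role. Further genes, among them Slc6a8, Slc38a10 and Slc12a7, were given with values outside these rules, and others are named by their calls. Members and lists were chosen with earlier results of these data known. Alternatives changed the filter, pseudocount, normalization, chromosomes, replicate block and libraries. Results of a few genes are not reported here.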

Additional observations from a re-analysis of the deposited data

How the results depend on the processing

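The direction of the calls held in every alternative: each called SLC gene kept its sign wherever it was tested. In total RNA the 39 calls became 24 with no filter on low values, while the other planned settings with all libraries gave 31 to 44. In footprints the 74 calls became 55 to 77. Replicate numbers did not pair the libraries (correlations of deviations from −0.028 to 0.074 over 9972 genes), and a replicate block gave 42 calls in total RNA, 63 in footprints and 0 for the ratio. Leaving out 1 library in turn gave 0 to 19 calls in total RNA (22 to 38 with all 8 libraries in 1 fit), 36 to 52 in footprints (31 to 47, with 46 without WT replicate 2) and 0 to 1 for the ratio; fewer libraries leave fewer degrees of freedom. The footprint median of 0.52 became 0.43 with a pseudocount of 5, 0.46 without Rn45s, 0.62 with chromosome medians removed and 0.63 without chromosomes 6, 8 and 11. Reversed values were listed for a smaller set of named genes only, and all were of changes that were not called. With quantile normalization these were Slc16a1 (−0.00632) and Slc7a11 (0.00219) in total RNA. With chromosome medians removed they were Slc16a1 (−0.046) and Slc16a3 (0.38) in total RNA and Slc39a11 (0.33) in footprints. Uncalled SLC genes outside that set may also change sign and are not listed. Without 1 library, total RNA changes ranged from −0.10 to 0.11 for Slc16a1 (−0.094 without WT replicate 2), −0.50 to 0.44 for Slc7a11, −0.31 to 0.19 for Slc16a3, −0.37 to 0.022 for Slc3a2, −0.00882 to 0.27 for Slc29a1 and −0.10 to 0.036 for Slc39a10, and footprint changes from −0.36 to 0.11 for Slc39a11 and −0.27 to 0.044 for Slc25a5. The cause of these changes was not tested. Depth limits genes of a few CPM most, where 1 read is 0.338 to 0.768 CPM.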
